A study of Mus musculus with 69 samples.

Results

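The libraries described here measure mRNA in sorted naive CD8+ T cells (Tnv) that received no cytokine, from mice that keep 4 or 1 of the 4 alleles of Stat5a and Stat5b. They are 6 of the 69 samples of the series and were chosen by their labels, which name naive CD8+ cells, no cytokine (NC) and 1 of 3 genotypes, with 2 libraries each. WT mice (Stat5a+/+ Stat5b+/+) carry all 4 alleles, AAB mice (Stat5a-/- Stat5b+/-) keep 1 allele of Stat5b, and BBA mice (Stat5a+/- Stat5b-/-) keep 1 allele of Stat5a. The alleles were deleted in the germline, and in AAB and BBA 1 chromosome lacks the whole Stat5 locus, so every tissue of these mice is deficient and effects inside the T cell cannot be told apart from effects of the animal around it. The sort took CD8+ T cells of a naive surface phenotype, low in CD44, from lymph nodes pooled with spleen, of adult mice on a C57BL/6 background. The labels describe a culture of 12 to 16 h between sort and lysis, whereas the study's methods describe cells without cytokine as lysed straight after the sort. The study's methods describe RNA replicates as separate mice.

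STAT5A and STAT5B are closely related transcription factors encoded by neighbouring genes. Cytokines of the common gamma chain family, among them IL-7 and IL-15, act through JAK kinases to phosphorylate them, after which they enter the nucleus and bind DNA at palindromic sites of the form TTCNNNGAA. In naive CD8+ T cells IL-7 signalling through STAT5 is known for sustaining survival, in part through the apoptosis inhibitor BCL-2, while CIS and SOCS proteins, products of STAT5 target genes, feed back on the receptors. The comparisons ask what the loss of STAT5 does to these cells before any cytokine is added, and whether the allele that remains, of Stat5a or of Stat5b, makes a difference.

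The authors' counts on genes totalled 9957938 to 18563638 per library, and BBA replicate 1 was the shallowest. At these depths 3 counts correspond to 0.163 to 0.297 CPM, a gene's count scaled to the library's total after TMM normalization. Defining markers of the sorted cell were present: summed CD8 T cell markers ran from 4567 to 5552 CPM and naive T cell markers from 4077 to 4253 CPM. Summed markers of other cells were low for erythroid cells and platelets (3.57 to 10.2 CPM), NK cells (4.57 to 11.2), gamma-delta and NKT cells (0.926 to 1.44) and CD4 T cells and Treg (65.2 to 72.5). B cell markers summed to 221 and 656 CPM in WT, 272 and 685 in AAB and 383 and 499 in BBA, higher in replicate 2 of every genotype, and 0 of 15 tested were called by edgeR in the 3 comparisons, with 0 at p under 0.05 before adjustment and 0 called by DESeq2. Summed myeloid markers ran from 258 to 382 CPM, and 1 of 9 tested, Ms4a6c, was called (higher in BBA). Xist was high and Y-linked genes were at or near 0 in all 6 libraries, the pattern of female mice, with Xist at 776 to 994 CPM and Y-linked genes at 0 to 0.191 CPM by the plain library total.

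The targeted genes were read first. Stat5a stood at 100.4 and 87.8 CPM in WT, 2.26 and 2.01 in AAB and 46.5 and 46.0 in BBA. AAB thus kept 2.27% and BBA 49.1% of the WT mean. Stat5b stood at 248 and 240.3 CPM in WT, 117 and 115 in AAB and 74.7 and 77.9 in BBA, and AAB kept 47.5% and BBA 31.2%. None of the 3 genotypes overlapped for either gene. BBA cells still held Stat5b reads although both alleles are targeted, and a gene count does not show whether those transcripts encode a working protein. Both genes fell in both strains, with changes in BBA of log2 −1.03 ± 0.09 (SE, edgeR adjusted p = 0.0026) for Stat5a and log2 −1.68 ± 0.07 (SE, edgeR adjusted p = 0.000185) for Stat5b, and in AAB of log2 −5.46 ± 0.13 (SE, edgeR adjusted p = 4.26e-06) and log2 −1.07 ± 0.07 (SE, edgeR adjusted p = 0.00178). A fold change here is deficient over WT, and p-values come from the quasi-likelihood test of edgeR, adjusted by Benjamini-Hochberg over every tested gene. How the authors' counting treated reads that fit both genes is not given, and such reads may have been left out. In bulk RNA, fewer cells of a type and less RNA per cell cannot be told apart, here or in the results that follow.

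Divided by exon length, so that the 2 genes can be added, total Stat5 mRNA was 58.9 and 55.7 CPM per kb of exon in WT, 21.5 and 21.0 in AAB and 20.0 and 20.5 in BBA. That is 37.5% and 36.7% of the WT mean in the AAB libraries and 34.9% and 35.8% in the BBA libraries. Summed this way, both deficient strains lay below WT and close to each other, at 20.0 to 21.5 CPM per kb. The gene that keeps an intact allele gave 21.2 and 20.7 CPM per kb in AAB (Stat5b) but 6.51 and 6.45 in BBA (Stat5a). Most of the BBA sum, 13.5 and 14.1, was residual Stat5b, of which both alleles are targeted. The strains were thus not matched in mRNA of the remaining paralog.

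**Figure D1:**
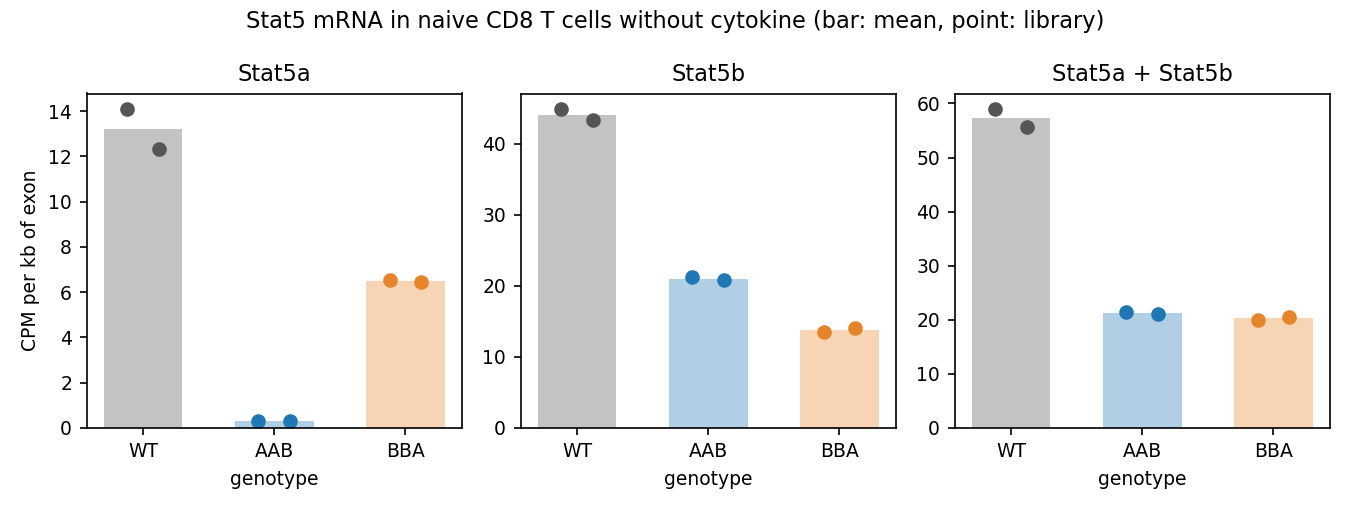
Stat5a, Stat5b and summed Stat5 mRNA (y axis, CPM per kb of exon) by genotype (x axis), with bars for the mean and points for the 2 libraries. AAB has almost no Stat5a, BBA has the lowest Stat5b, and the sums of AAB and BBA (20.0 to 21.5) both sit well under those of WT (55.7 and 58.9). Most of the BBA sum is Stat5b, of which both alleles are targeted.

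Genes were called where edgeR gave an adjusted p under 0.05 and the fold change exceeded 1.5 in either direction. Of 9750 genes tested, 268 were called between BBA and WT (2.75% of those tested), 124 higher (1.27%) and 144 lower (1.48%) in BBA. Between AAB and WT 16 were called (0.164%), 11 higher (0.113%) and 5 lower (0.0513%) in AAB. The direct comparison of the deficient strains called 51 genes (0.523%), 28 higher (0.287%) and 23 lower (0.236%) in AAB than in BBA. Without a limit on the fold or an adjustment, 2211, 765 and 1521 genes had p under 0.05 in the 3 comparisons. Replicates within a genotype varied by a biological coefficient of variation of 10.8%, and the first principal component, with 45.2% of the variance, ordered the libraries as WT, AAB and BBA. The second, with 19.6%, set replicate 1 apart from replicate 2 in every genotype, a difference that the main fit does not model.

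These counts depended on single libraries. For BBA against WT they were 71 without WT replicate 1, 137 without WT replicate 2 and 164 without BBA replicate 2. For AAB against WT they were 8 without WT replicate 1, 7 without WT replicate 2 and 8 without AAB replicate 1. For AAB against BBA they were 20 without either WT library, 9 without AAB replicate 1, 32 without AAB replicate 2, 31 without BBA replicate 1 and 24 without BBA replicate 2. All 268, 16 and 51 genes kept the sign of their fold change in each of these fits. The fits reuse the libraries from which the genes were called, so a kept sign adds no support. The comparisons of BBA and of AAB with WT share the WT libraries, so their values are set side by side below. Genes named for the size of their fold were taken only from calls whose compared libraries did not overlap. With 2 libraries per group a lack of overlap adds no support to a call, and its share over all tested genes was not counted.

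**Figure D2:**
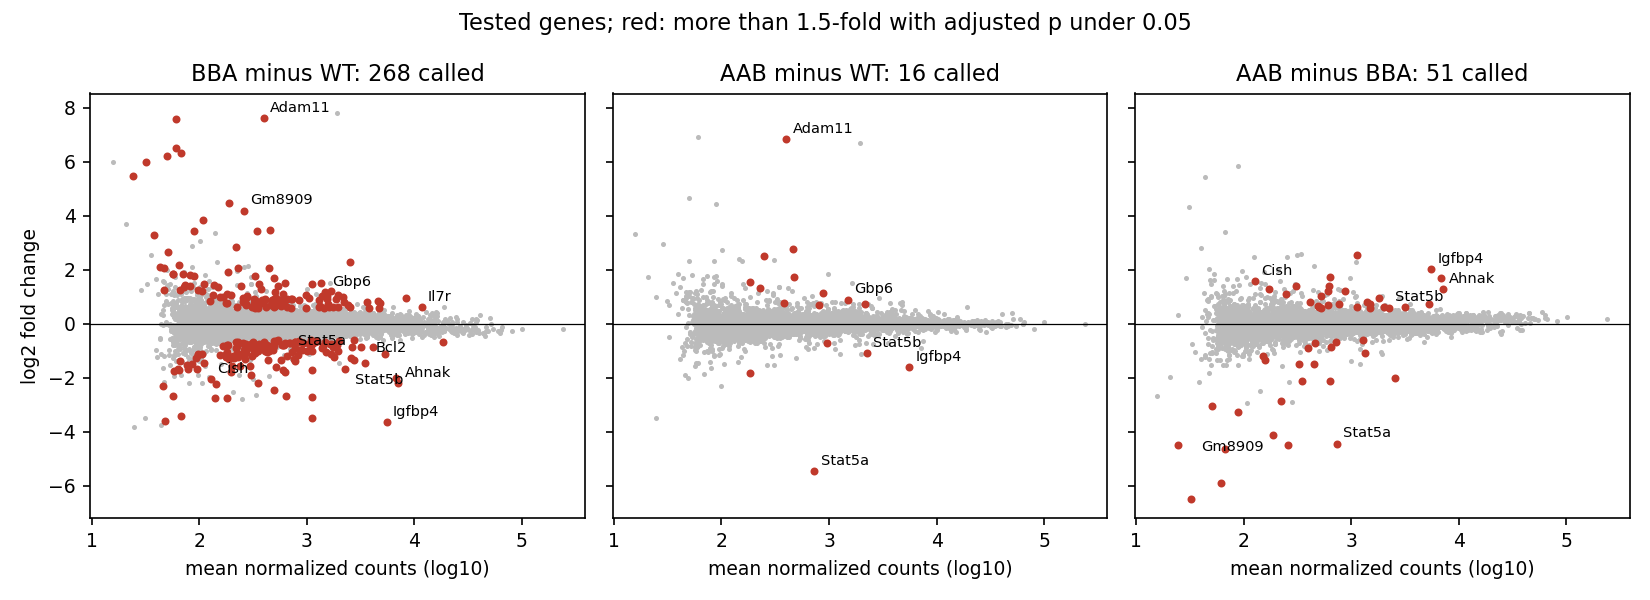
Log2 fold change (y axis) against the log10 of the mean normalized count (x axis) of each tested gene in the 3 comparisons, with called genes in red. Igfbp4 lies at −3.63 (BBA minus WT), −1.60 (AAB minus WT) and 2.04 (AAB minus BBA), and red points are most frequent in the panel of BBA minus WT.

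Among genes known to be driven by STAT5, Cish and Bcl2 fell in BBA while Socs1, Socs3, Pim1 and Myc were not called. Cish, the gene of the feedback inhibitor CIS (chromosome 9, 107296026 to 107302784, plus strand, GRCm38, protein coding), stood at 14.6 and 10.7 CPM in WT, 9.22 and 8.98 in AAB and 2.97 and 3.05 in BBA. The 3 genotypes did not overlap, and Cish was lowest in both BBA libraries. It fell in BBA, with a log2 fold change of −2.06 ± 0.22 (SE, edgeR adjusted p = 0.00494), was not called in AAB at log2 −0.47 ± 0.20 (SE, edgeR adjusted p = 0.638), and was higher in AAB than in BBA by log2 1.59 ± 0.22 (SE, edgeR adjusted p = 0.0357). Bcl2 (chromosome 1, 106538178 to 106714274, minus strand), an inhibitor of apoptosis, stood at 364 and 323 CPM in WT, 244 and 177 in AAB and 149 and 106 in BBA. The order was WT, AAB, BBA with no overlap, and the fall in BBA was log2 −1.44 ± 0.20 (SE, edgeR adjusted p = 0.0116), against log2 −0.71 ± 0.19 (SE, edgeR adjusted p = 0.305) in AAB, which was not called. Tnfrsf18, which encodes the costimulatory receptor GITR, fell in BBA from 49.7 and 44.6 CPM in WT to 30.4 and 24.7 CPM in BBA (log2 fold change −0.78 ± 0.14 SE, edgeR adjusted p = 0.0309).

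Bcl6, a transcriptional repressor known to be repressed by STAT5 in T cells, moved the other way. It stood at 14.4 and 15.6 CPM in WT, 20.5 and 24.4 in AAB and 35.1 and 37.6 in BBA, with no overlap between genotypes, and rose in BBA by log2 1.27 ± 0.12 (SE, edgeR adjusted p = 0.00333), against log2 0.58 ± 0.12 (SE, edgeR adjusted p = 0.194) in AAB, not called. Il7r, which encodes the IL-7 receptor alpha chain, stood at 554 and 653 CPM in WT, 754 and 785 in AAB and 925 and 937 in BBA and rose in BBA by log2 0.63 ± 0.09 (SE, edgeR adjusted p = 0.0141), against log2 0.35 ± 0.09 (SE, edgeR adjusted p = 0.284) in AAB, not called. The BBA libraries were the highest and the WT libraries the lowest for both genes.

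Of 29 tested genes on the list of STAT5 targets, 1 rose (Bcl6) and 3 fell (Bcl2, Cish and Tnfrsf18) in BBA, where 1.27% of all tested genes rose and 1.48% fell, with a median log2 fold change of −0.09 against −0.00115 over all tested genes. In AAB 0 were called, with a median of 0.03, 6 genes at p under 0.05 before adjustment and 1 called by DESeq2. In BBA 2 of 7 STAT genes were called, which were Stat5a and Stat5b, together with 1 of 11 common gamma chain receptor and JAK genes (Il7r), 1 of 10 SOCS and related inhibitors (Cish) and 1 of 13 BCL-2 family genes (Bcl2). In AAB the calls on these lists were Stat5a and Stat5b, and the receptor, inhibitor and BCL-2 family lists had 0, with 3, 1 and 2 genes at p under 0.05 before adjustment and 0 called by DESeq2. Cish and Bcl6 stayed called with any 1 library left out. Bcl2 was not called without WT 1 or BBA 2 (−1.35 to −1.21), Tnfrsf18 without WT 1, WT 2 or BBA 2 (−0.86 to −0.63) and Il7r without WT 1 or BBA 2 (0.51 to 0.62). Socs1 had a log2 fold change of 0.03 in BBA, Socs3 of 0.36, Pim1 of −0.63 and Myc of −0.27, the receptor chains Il2rb and Il2rg of −0.22 and −0.10, and none of them was called (edgeR adjusted p = 0.226 to 0.93 over Pim1, Socs3, Myc and Socs1). Socs2 had too few counts to be tested. Stat3, Il15ra and Il2ra had log2 fold changes of 0.27, 0.04 and −0.53 in BBA and were not called.

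The STAT binding sequence occurs in the promoter windows of several of these genes. RefSeq promoter windows (GRCm38.p6) of 250 bases before to 50 bases after a gene's start were searched on both strands for TTCNNNGAA, which reads the same on either strand. It was present in 2726 of 32851 windows (8.30%), in 642 of 7522 tested genes with a window (8.53%), in 12 of 91 genes that rose in BBA (13.2%) and in 13 of 103 that fell (12.6%). The matches below are those of Cish and Bcl6, which moved in opposite directions, and of 3 interferon-induced GTPase genes described further on. The match is in capitals with up to 10 bases on either side, read along the strand of the gene. A match describes letters and is not evidence of binding in these cells.
Cish chr9:107296649-107296677 (plus strand): ccgcccagttTTCCTGGAAagttcttgga
Cish chr9:107296660-107296688 (plus strand): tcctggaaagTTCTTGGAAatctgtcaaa
Bcl6 chr16:23981353-23981381 (minus strand): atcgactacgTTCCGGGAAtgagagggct
Bcl6 chr16:23981433-23981461 (minus strand): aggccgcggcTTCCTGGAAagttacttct
Igtp chr11:58199501-58199529 (plus strand): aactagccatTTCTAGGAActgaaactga
Irgm2 chr11:58214892-58214920 (plus strand): aactagccatTTCCAGGAActgaaactga
Gbp5 chr3:142496872-142496900 (plus strand): tggccgttatTTCTCAGAAccaagcacag

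The first Cish match began at the RefSeq gene start and the second 11 bases after it. The Bcl6 matches began 88 and 168 bases before a start, the Igtp match 45, the Irgm2 match 75 and the Gbp5 match 52 bases before the start. Bcl6 and Gbp5 have further matches that are not shown.

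Naive T cell genes split in BBA, with Igfbp4, Dapl1, Itgae and Il6ra falling and Ccr9, Id3, Myb and Il7r rising. Igfbp4 encodes an insulin-like growth factor binding protein (chromosome 11, 99041244 to 99054392, plus strand) and stood at 795 and 719.8 CPM in WT, 271 and 229.9 in AAB and 56.9 and 64.8 in BBA. The genotypes did not overlap, and the AAB libraries lay between the other two. Igfbp4 fell in both strains, with log2 fold changes of −3.63 ± 0.12 (SE, edgeR adjusted p = 5.69e-05) in BBA and log2 −1.60 ± 0.11 (SE, edgeR adjusted p = 0.00183) in AAB, and AAB exceeded BBA by log2 2.04 ± 0.11 (SE, edgeR adjusted p = 0.00129). Dapl1, a marker of naive T cells, stood at 87.8 and 58.9 CPM in WT, 41.8 and 34.8 in AAB and 13.3 and 10.2 in BBA, again in the order WT, AAB, BBA. It fell in BBA, at log2 −2.67 ± 0.23 (SE, edgeR adjusted p = 0.0022), was not called in AAB (−0.93, edgeR adjusted p = 0.194), and was higher in AAB than in BBA by log2 1.73 ± 0.23 (SE, edgeR adjusted p = 0.0323).

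Itgae, the alpha subunit of the E-cadherin-binding integrin CD103, stood at 289.7 and 209 CPM in WT, 153 and 140.3 in AAB and 117 and 91.5 in BBA and fell in BBA, at log2 −1.26 ± 0.17 (SE, edgeR adjusted p = 0.0118). Il6ra, the IL-6 receptor alpha chain, fell from 259.9 and 257 CPM in WT to 132 and 151 CPM in BBA, a log2 fold change of −0.87 ± 0.09 (SE, edgeR adjusted p = 0.00375). For both genes the AAB libraries lay between WT and BBA without overlap. Ccr9, a chemokine receptor of gut homing, stood at 184 and 168 CPM in WT, 224 and 248 in AAB and 316 and 298 in BBA and rose in BBA by log2 0.80 ± 0.09 (SE, edgeR adjusted p = 0.00492). Id3, an inhibitor of E proteins, stood at 15.5 and 16.2 CPM in WT, 24.1 and 30.8 in AAB and 25.9 and 26.3 in BBA and rose in BBA by log2 0.72 ± 0.14 (SE, edgeR adjusted p = 0.035), and its AAB libraries, which overlapped BBA, were not called (log2 fold change 0.79 ± 0.14 SE, edgeR adjusted p = 0.12). Myb, a transcription factor, rose from 11.9 and 11.3 CPM in WT to 33.6 and 45.1 CPM in BBA (log2 fold change 1.77 ± 0.19 SE, edgeR adjusted p = 0.00492), while AAB held 12.2 and 16.1 CPM, lower than BBA at log2 −1.48 ± 0.19 (SE, edgeR adjusted p = 0.0283).

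In all, 4 of 31 tested naive and quiescence genes rose and 4 fell in BBA (Il7r included), against 1.27% and 1.48% of all tested genes, with a median log2 fold change of 0.02, and 1 fell in AAB (Igfbp4), with a median of 0.00. Igfbp4, Dapl1, Il6ra, Ccr9 and Myb stayed called with any 1 library left out. Itgae was not called without WT 1 or BBA 2 (−1.09 to −1.01) and Id3 without WT 1, WT 2, BBA 1 or BBA 2 (0.69 to 0.75). Cd44, a gene of the sort, was not called and stood at 18.7 and 30.1 CPM in WT, 21.9 and 30.6 in AAB and 24.9 and 24.6 in BBA, with all genotypes overlapping. Ccr7, Tcf7 and Lef1 had log2 fold changes of −0.20, 0.04 and 0.04 in BBA and −0.07, −0.00 and 0.16 in AAB. Cd8a and Cd8b1 had 0.06 and −0.12 in BBA. Of 17 homing and chemokine receptor genes 2 rose (Ccr9 and Cxcr3) and 1 fell (Itgae) in BBA, and 0 were called in AAB, with 3 at p under 0.05 before adjustment and 1 called lower by DESeq2.

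Among genes that are high in effector and memory T cells, 7 of 37 tested fell in BBA (Ahnak, Crip1, Cst7, Il18r1, Lgals1, Plac8 and Vim) and 3 rose (Bcl6, Cxcr3 and Eomes), where 1.48% of all tested genes fell and 1.27% rose, with a median log2 fold change of −0.22 against −0.00115 over all tested genes. In AAB 0 of 37 were called by edgeR, with a median of −0.06, 15 at p under 0.05 before adjustment and 2 called higher and 1 lower by DESeq2. Ahnak, which encodes a very large scaffold protein, stood at 735 and 834 CPM in WT, 483 and 359 in AAB and 166 and 179 in BBA. It fell in BBA, at log2 −2.18 ± 0.15 (SE, edgeR adjusted p = 0.00118), and was higher in AAB than in BBA by log2 1.29 ± 0.14 (SE, edgeR adjusted p = 0.0199), while its log2 fold change in AAB of −0.90 was not called (edgeR adjusted p = 0.0956). Lgals1, the gene of galectin-1, stood at 63.2 and 53.8 CPM in WT, 52.5 and 38.2 in AAB and 16.7 and 17.4 in BBA. The BBA libraries lay below all others, with log2 fold changes of −1.77 ± 0.17 (SE, edgeR adjusted p = 0.00332) for BBA over WT and log2 1.40 ± 0.17 (SE, edgeR adjusted p = 0.0223) for AAB over BBA.

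Vim, which encodes the intermediate filament protein vimentin, stood at 463 and 458 CPM in WT, 372 and 336 in AAB and 223 and 206 in BBA and fell in BBA, at log2 −1.10 ± 0.08 (SE, edgeR adjusted p = 0.00172). Il18r1, an IL-18 receptor chain, fell from 135 and 121 CPM in WT to 57.7 and 65.8 CPM in BBA (log2 fold change −1.05 ± 0.11 SE, edgeR adjusted p = 0.00461). Both were also higher in AAB than in BBA, by log2 0.72 ± 0.08 (SE, edgeR adjusted p = 0.0199) and log2 0.73 ± 0.11 (SE, edgeR adjusted p = 0.044). Crip1, Plac8 and Cst7 fell, with log2 fold changes of −0.68, −0.68 and −0.67 in BBA (edgeR adjusted p = 0.00785 to 0.0428). In the opposite direction Eomes, a T-box transcription factor of memory CD8+ T cells, stood at 67.2 and 72.4 CPM in WT, 94.7 and 111 in AAB and 137 and 128 in BBA and rose in BBA by log2 0.92 ± 0.10 (SE, edgeR adjusted p = 0.00484), against log2 0.56 ± 0.10 (SE, edgeR adjusted p = 0.124) in AAB, not called. The chemokine receptor gene Cxcr3 rose from 10.1 and 14.4 CPM in WT to 25.1 and 23.4 CPM in BBA (log2 fold change 0.97 ± 0.18 SE, edgeR adjusted p = 0.0309). Tbx21, the other T-box factor gene of effector cells, had 3.29 to 4.66 CPM and was below the count filter.

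Ahnak, Lgals1, Vim and Il18r1 stayed called with any 1 library left out. Crip1 was not called without WT 1 (−0.62), Plac8 without WT 1, AAB 1, BBA 1, AAB 2 or BBA 2 (−0.79 to −0.49) and Cst7 without WT 1, WT 2, AAB 1, AAB 2 or BBA 2 (−0.71 to −0.47). Eomes was not called without WT 1 (0.87) and Cxcr3 without WT 1, BBA 1 or BBA 2 (0.75 to 1.02). AAB levels of Ahnak, Lgals1, Vim and Il18r1 lay between WT and BBA without overlap.

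Some genes of T cell receptor signalling were higher in BBA, together with the inhibitory receptor gene Lag3 and with Ikzf2. Trat1, which encodes an adaptor bound to the T cell receptor, stood at 6.36 and 5.34 CPM in WT, 14.1 and 15.3 in AAB and 22.8 and 26.6 in BBA. It rose in both strains, by log2 2.09 ± 0.16 (SE, edgeR adjusted p = 0.00195) in BBA and log2 1.34 ± 0.16 (SE, edgeR adjusted p = 0.0395) in AAB, with no overlap between the genotypes. Ptpn22, a phosphatase that restrains receptor signalling, rose in BBA by log2 0.60 ± 0.09 (SE, edgeR adjusted p = 0.0134), and Ubash3b, another negative regulator, fell at log2 −0.76 ± 0.13 (SE, edgeR adjusted p = 0.0276). The inhibitory receptor gene Lag3 stood at 1.64 and 1.63 CPM in WT, 3.67 and 3.51 in AAB and 7.63 and 4.27 in BBA and rose in BBA by log2 1.83 ± 0.35 (SE, edgeR adjusted p = 0.036). Ikzf2, which encodes the transcription factor Helios, stood at 7.22 and 5.72 CPM in WT, 5.86 and 7.09 in AAB and 13.97 and 12.8 in BBA and rose in BBA by log2 1.05 ± 0.20 (SE, edgeR adjusted p = 0.0343).

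Of 26 tested genes of the T cell receptor complex, coreceptors and proximal kinases 2 rose and 1 fell in BBA, and 1 rose in AAB (Trat1). Beside these and the next counts, 1.27% of all tested genes rose and 1.48% fell in BBA, and 0.113% rose in AAB. A single call in a list is not read as a result for the list. The list of inhibitory checkpoint genes and Tox also holds Ikzf2, which is not a receptor gene. Of its 8 tested genes 2 rose in BBA (Lag3 and Ikzf2), with a median log2 fold change of 0.38. In AAB 0 were called by edgeR or DESeq2, with a median of −0.03 and 2 at p under 0.05 before adjustment. Of 31 immediate early genes 1 fell in BBA, Fosl2 at log2 −0.78 ± 0.16 (SE, edgeR adjusted p = 0.0449), and 0 were called in AAB by edgeR or DESeq2, with 3 at p under 0.05. Of 17 genes of the TNF superfamily Fas, the death receptor, rose in BBA by log2 0.98 ± 0.13 (SE, edgeR adjusted p = 0.0095) and Tnfrsf18 fell. Trat1 stayed called with any 1 library left out. Ptpn22 was not called without WT 1, WT 2 or BBA 1 (0.54 to 0.67), Ubash3b without WT 1, WT 2, BBA 1 or BBA 2 (−0.88 to −0.63) and Lag3 without WT 1, WT 2, AAB 1, BBA 1 or AAB 2 (1.38 to 1.84). Ikzf2 was not called without WT 1, WT 2, BBA 1 or BBA 2 (0.89 to 1.22), Fosl2 without WT 1, WT 2, AAB 1, BBA 1 or AAB 2 (−0.90 to −0.57) and Fas without WT 1 or BBA 2 (0.85 to 0.90). In AAB the call of Trat1 was lost with any 1 library left out (1.21 to 1.46). Cd5 and Cd69, whose levels follow receptor stimulation, had log2 fold changes of −0.31 and 0.51 in BBA and were not called.

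**Figure D3:**
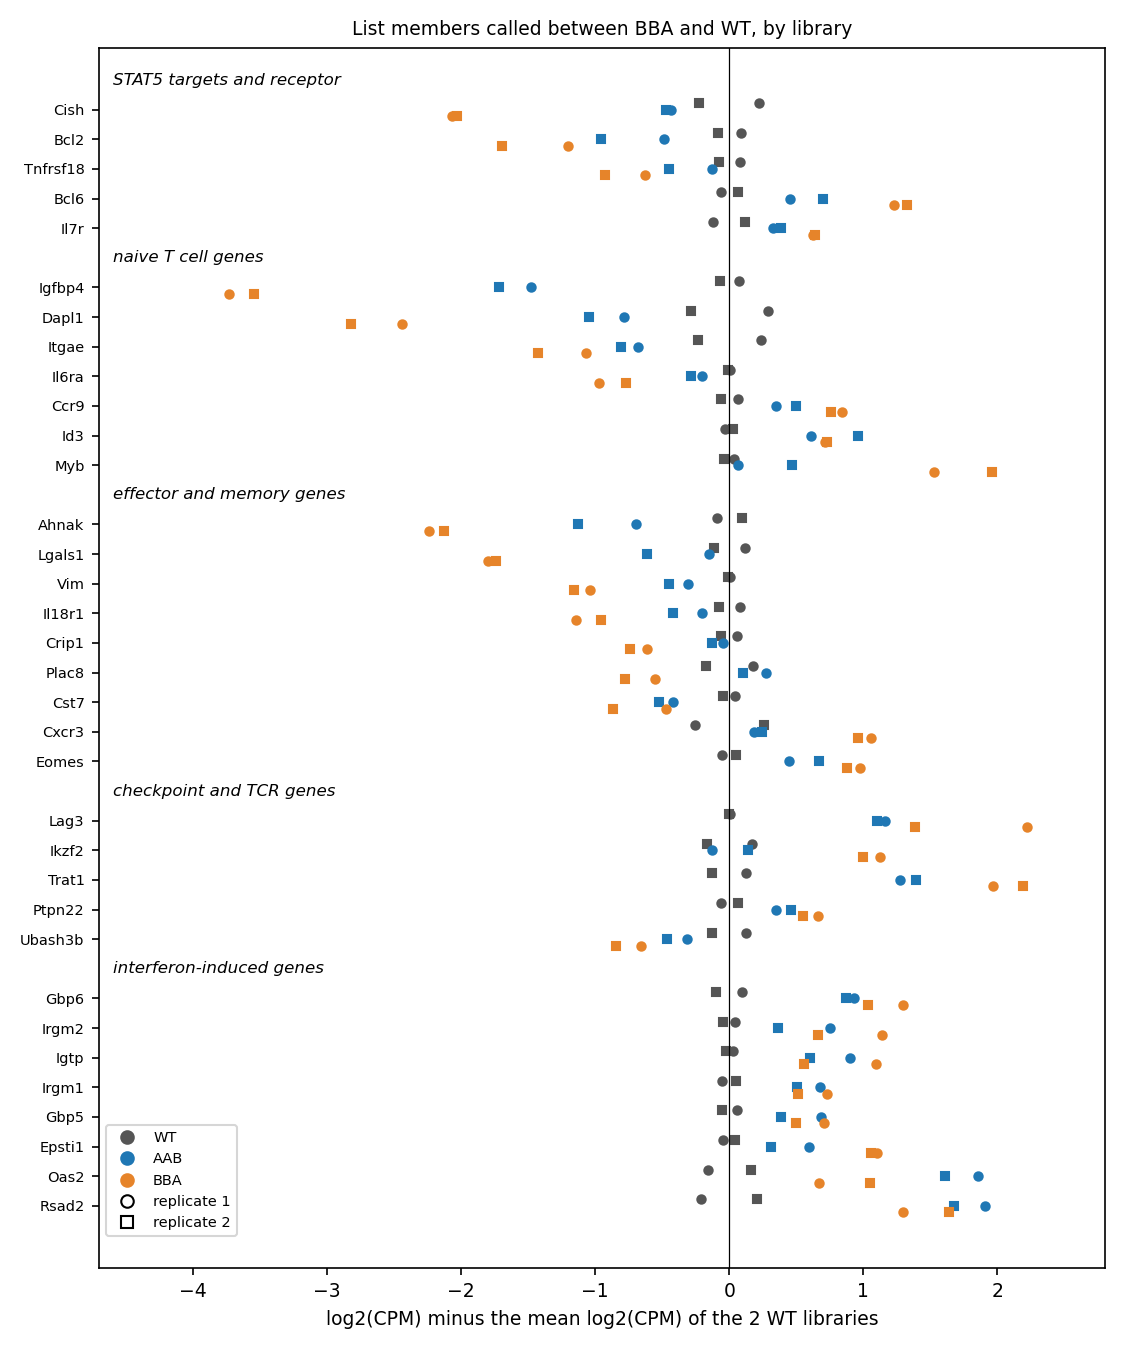
Called members of the gene lists (y axis, grouped by list) in each library, as log2(CPM) minus the mean log2(CPM) of the 2 WT libraries (x axis); circles are replicate 1 and squares replicate 2. For Igfbp4, Cish, Ahnak and Lgals1 the BBA points lie furthest left, with AAB between them and WT, and for Trat1 and Bcl6 they lie furthest right.

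Several interferon-induced genes rose in each strain, and fold changes above 0 outnumbered those below it in both. Of 16 tested interferon-induced GTPase genes, which act in cell-autonomous defence, 5 rose in BBA (Gbp5, Gbp6, Igtp, Irgm1 and Irgm2), against 1.27% of all tested genes, and 0 fell, with a median log2 fold change of 0.56. In AAB 1 rose (Gbp6), against 0.113% of all tested genes, and 0 fell, with a median of 0.58. DESeq2 called 7 higher in BBA and 6 in AAB. Fold changes were above 0 for 14 of the 16 in BBA and 16 of 16 in AAB, and p was under 0.05 before adjustment for 10 and 14, against 2211 and 765 of all 9750 tested genes. Their summed levels were 2007 and 1910.3 in WT, 3286 and 2601 in AAB and 3211 and 2556 in BBA, in CPM. All 4 deficient libraries lay above both WT libraries and overlapped each other. Gbp6, a guanylate-binding protein gene, stood at 61.2 and 53.5 CPM in WT, 109 and 104 in AAB and 140.0 and 117 in BBA and rose by log2 1.16 ± 0.11 (SE, edgeR adjusted p = 0.00333) in BBA and log2 0.90 ± 0.11 (SE, edgeR adjusted p = 0.0397) in AAB. Irgm1 stood at 118 and 127 CPM in WT, 195 and 173 in AAB and 202 and 174 in BBA and rose in BBA by log2 0.62 ± 0.10 (SE, edgeR adjusted p = 0.0236). In AAB it was not called, at log2 0.59 ± 0.10 (SE, edgeR adjusted p = 0.123). The annotated spans of Igtp and Irgm2 overlap on chromosome 11, and reads there could have been left out or given to the other gene. Igtp stood at 202 and 195 CPM in WT, 372 and 302 in AAB and 425 and 293 in BBA, and Irgm2 at 87.1 and 81.8 CPM in WT, 142 and 109 in AAB and 186 and 134 in BBA. Both rose in BBA, by log2 0.85 and 0.92 (edgeR adjusted p = 0.0428 and 0.036).

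Type I interferon-stimulated genes had 3 calls in BBA of 42 tested (Epsti1, Oas2 and Rsad2) and 2 in AAB (Oas2 and Ifi27l2a), all higher than WT, where 1.27% and 0.113% of all tested genes were called higher. The median log2 fold change was 0.36 in BBA and 0.59 in AAB, and p before adjustment was under 0.05 for 22 and 32 genes, beside the same 2211 and 765 of 9750. DESeq2 called 5 higher in BBA and 15 in AAB. Summed levels in CPM were 3874 and 3802 in WT, 5939 and 5005 in AAB and 5457 and 4634 in BBA. Oas2, an antiviral sensor of double-stranded RNA, stood at 13.4 and 16.8 CPM in WT, 54.2 and 45.9 in AAB and 23.9 and 31.1 in BBA. Here AAB was the highest genotype, with rises of log2 1.72 ± 0.17 (SE, edgeR adjusted p = 0.0168) in AAB and log2 0.87 ± 0.17 (SE, edgeR adjusted p = 0.0366) in BBA. Ifi27l2a stood at 42.0 and 39.0 CPM in WT, 101 and 79.7 in AAB and 39.6 and 38.7 in BBA, and it rose in AAB by log2 1.16 ± 0.12 (SE, edgeR adjusted p = 0.0182). AAB exceeded BBA by log2 1.21 ± 0.12 (SE, edgeR adjusted p = 0.0113), and BBA was not called, at log2 −0.05 ± 0.12 (SE, edgeR adjusted p = 0.845). Epsti1 rose in BBA from 83.2 and 88.6 CPM in WT to 185 and 179 CPM in BBA (log2 fold change 1.08 ± 0.10 SE, edgeR adjusted p = 0.00333).

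In BBA against WT, Gbp6 and Epsti1 stayed called with any 1 library left out. Irgm1 was not called without WT 1, WT 2 or BBA 1 (0.51 to 0.67), Irgm2 without WT 1, WT 2 or BBA 1 (0.66 to 0.96) and Igtp without WT 1, WT 2, AAB 1 or BBA 1 (0.56 to 0.88). Gbp5 was not called without WT 1, WT 2, BBA 1 or BBA 2 (0.50 to 0.71), Oas2 without WT 1, WT 2 or BBA 2 (0.65 to 1.05) and Rsad2 with any 1 library left out (1.26 to 1.69). In AAB against WT, Gbp6 was not called without WT 1, WT 2, AAB 1 or AAB 2 (0.80 to 0.996), Oas2 without WT 1, WT 2 or AAB 1 (1.58 to 1.90) and Ifi27l2a without WT 1, WT 2, AAB 1, BBA 1 or BBA 2 (0.98 to 1.21). H2-T24 was not called with any 1 library left out (0.59 to 0.78). Of 21 tested genes of MHC class I and antigen processing, 0 were called in BBA by edgeR or DESeq2, with 3 at p under 0.05 before adjustment. In AAB 1 was called, H2-T24, which rose by log2 0.69 ± 0.09 (SE, edgeR adjusted p = 0.0475), with 8 at p under 0.05. Of all tested genes 2.75% were called in BBA and 0.164% in AAB. Fold changes were above 0 for 16 of the 21 in BBA and 21 in AAB, with median log2 fold changes of 0.07 and 0.17. That list does not hold H2-Q2, H2-T3, Gm8909 or Gm11127, which rose in BBA.

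**Figure D4:**
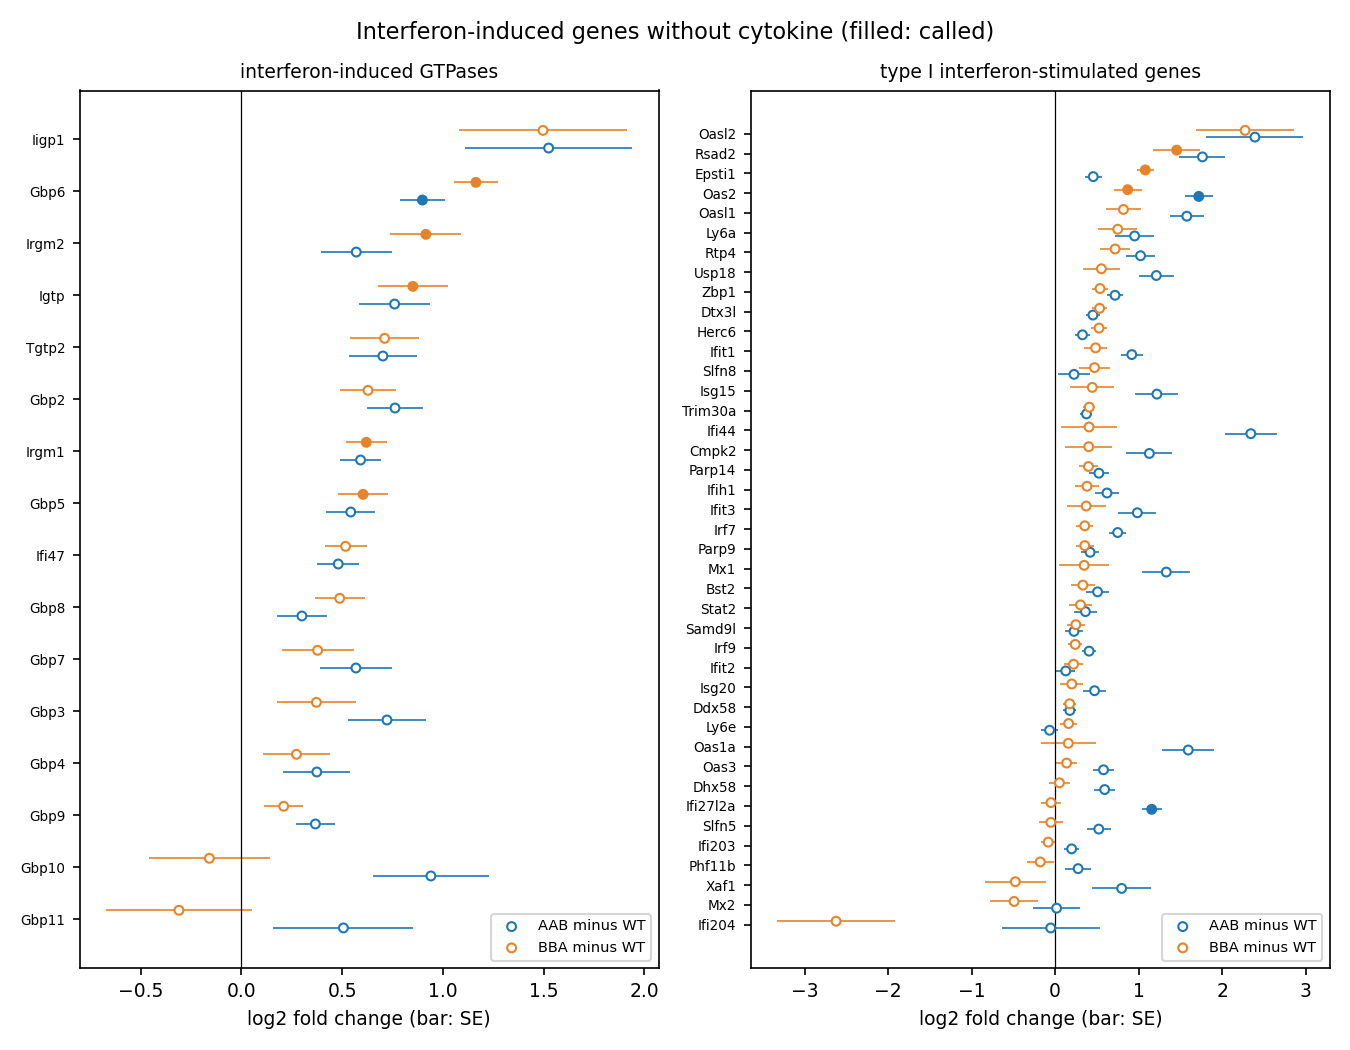
Log2 fold change over WT (x axis, bars for the standard error) of tested interferon-induced GTPase genes (left) and type I interferon-stimulated genes (right), with AAB in blue, BBA in orange and called genes filled. Medians lie between 0.36 and 0.59 in both strains, and Oas2 and Ifi27l2a are further right in AAB than in BBA.

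AAB cells differed from WT at 16 genes, 11 higher and 5 lower. The 5 lower were Stat5a, Stat5b, Igfbp4, Tbc1d16 and Gnptg, and the 11 higher were Adam11, Rnf157, Gm10653, Car2, Trat1, Gbp6, Oas2, Ifi27l2a, H2-T24, Tspan3 and Rtfdc1. Adam11, a metalloprotease-like gene known from the nervous system, stood at 0.143 and 0.327 CPM in WT, 26.7 and 31.4 in AAB and 39.8 and 60.5 in BBA. WT was close to the level of 3 counts, and Adam11 rose in AAB by log2 6.83 ± 0.38 (SE, edgeR adjusted p = 0.00116) and in BBA by log2 7.63 ± 0.37 (SE, edgeR adjusted p = 0.000258). Rnf157, a ubiquitin ligase gene, stood at 3.93 and 5.56 CPM in WT, 30.2 and 34.8 in AAB and 57.3 and 49.5 in BBA and rose by log2 2.76 ± 0.17 (SE, edgeR adjusted p = 0.00178) in AAB and log2 3.47 ± 0.17 (SE, edgeR adjusted p = 0.000258) in BBA. Tbc1d16, which encodes a Rab GTPase-activating protein, stood at 28.1 and 21.5 CPM in WT, 7.86 and 6.09 in AAB and 3.57 and 3.77 in BBA and fell at log2 −1.83 ± 0.20 (SE, edgeR adjusted p = 0.0232) in AAB and log2 −2.75 ± 0.22 (SE, edgeR adjusted p = 0.00204) in BBA. Car2, the gene of carbonic anhydrase 2, stood at 4.43 and 5.01 CPM in WT, 13.6 and 13.9 in AAB and 19.2 and 16.9 in BBA and rose by log2 1.54 ± 0.16 (SE, edgeR adjusted p = 0.0184) in AAB and log2 1.92 ± 0.16 (SE, edgeR adjusted p = 0.0022) in BBA. For these 4 genes both strains lay on one side of WT, with BBA the further from it.

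Rtfdc1 and Tspan3 rose in AAB by log2 0.74 and 0.79 (edgeR adjusted p = 0.0179 and 0.0371), beside 0.99 and 0.87 in BBA. Gnptg stood at 77.2 and 80.8 CPM in WT, 47.0 and 49.1 in AAB and 57.8 and 58.4 in BBA, lowest in AAB, and fell there at log2 −0.72 ± 0.07 (SE, edgeR adjusted p = 0.0182). Adam11, Rnf157, Gm10653, Stat5a, Stat5b and Igfbp4 stayed called with any 1 library left out. Car2 was not called without WT 1, WT 2, AAB 1 or AAB 2 (1.46 to 1.63), Tbc1d16 with any 1 library left out (−2.02 to −1.62) and Gnptg without WT 1, WT 2, AAB 1, BBA 1 or AAB 2 (−0.75 to −0.68). Tspan3 was not called with any 1 library left out (0.77 to 0.80) and Rtfdc1 without WT 1, WT 2, AAB 1 or AAB 2 (0.70 to 0.78).

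The Stat5 locus itself lies on chromosome 11 (100780731 to 100885169), and some of the genes with large differences lie near it. Of 63 tested genes within 2 Mb of the locus, 4 were called in BBA and 4 in AAB (6.35%), in each Adam11 higher and Igfbp4, Stat5a and Stat5b lower. Stat5a and Stat5b are the targeted genes, so their calls followed from the design, and Adam11 and Igfbp4 were the only others. Over all 9376 tested genes with a position 2.68% were called in BBA and 0.160% in AAB. Adam11 lies 1.88 Mb and Igfbp4 1.73 Mb from the locus, Rnf157 15.45 Mb and Tbc1d16 18.26 Mb. Within 20 Mb, 12 of 361 genes (3.32%) were called in BBA and 6 of 361 (1.66%) in AAB, so 6 of the 16 AAB calls lay there. Both counts again hold the targeted genes Stat5a and Stat5b. The deleted alleles sit on this stretch of chromosome in AAB and BBA alike, so an effect of Stat5 loss and an effect of DNA carried along with the deletions cannot be told apart for these genes. On all chromosomes except 11 and 17, 212 of 8056 genes (2.63%) were called in BBA and 7 of 8056 (0.0869%) in AAB. These calls were not spread evenly, and chromosome 13 had the highest share of any chromosome in BBA. There 15 of 333 tested genes were called in BBA, beside 251 of all 9376, and 0 in AAB. Between AAB and BBA chromosome 13 again had the highest share, 7 of 333 beside 48 of 9376. Slc6a19 and Pcsk1, both lower in AAB, were among them. The cause was not tested.

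AAB and BBA, which differ in which paralog remains and in its mRNA level, were compared directly. Besides Cish, Igfbp4, Dapl1, Il6ra, Ahnak, Lgals1, Vim, Il18r1 and Ifi27l2a, the genes higher in AAB included Smc6, Stat5b and Crip1. Smc6, a subunit of the SMC5/6 complex of chromosome maintenance, stood at 629 and 647 CPM in WT, 454 and 579.8 in AAB and 149 and 170.3 in BBA. Its BBA libraries lay below all others, with log2 1.69 ± 0.13 (SE, edgeR adjusted p = 0.00419) for AAB over BBA and log2 −2.00 ± 0.13 (SE, edgeR adjusted p = 0.00115) for BBA over WT. The AAB libraries lay under WT without overlap and without a call, at log2 −0.30 ± 0.12 (SE, edgeR adjusted p = 0.605). Genes lower in AAB than in BBA included Pydc3 and Pydc4, which encode pyrin-domain proteins and are close paralogs. Pydc3 stood at 64.5 and 76.4 CPM in WT, 86.3 and 86.4 in AAB and 306 and 391 in BBA, with a log2 fold change of AAB over BBA of −2.01 (edgeR adjusted p = 0.00219), and rose in BBA over WT by log2 2.31 ± 0.14 (SE, edgeR adjusted p = 0.000727). Slc6a19, a transporter of neutral amino acids, stood at 4.72 and 4.63 CPM in WT, 13.3 and 10.6 in AAB and 64.5 and 38.9 in BBA and had a log2 fold change of AAB over BBA of −2.10 (edgeR adjusted p = 0.0222). Elovl6, a fatty acid elongase gene, was lower in AAB than in BBA, at log2 −0.89 ± 0.12 (SE, edgeR adjusted p = 0.0323). By list, AAB exceeded BBA at 5 of 37 effector and memory genes, 3 of 31 naive genes and 1 of 29 STAT5 targets (Cish), and lay below BBA at 1 naive gene (Myb). Of all tested genes 0.287% were called higher and 0.236% lower in AAB than in BBA.

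For AAB against BBA, Smc6, Pydc3, Igfbp4 and Stat5a stayed called with any 1 library left out. Pydc4 was not called without AAB 1 (−1.56), Slc6a19 without WT 1, WT 2, AAB 1 or AAB 2 (−2.28 to −1.95) and Elovl6 with any 1 library left out (−0.99 to −0.78). Stat5b was not called with any 1 library left out (0.57 to 0.64), Crip1 with any 1 library left out (0.53 to 0.66) and Cish with any 1 library left out (1.57 to 1.61). Dapl1 was not called without AAB 1, BBA 1, AAB 2 or BBA 2 (1.53 to 1.91), Il6ra without WT 1, WT 2, AAB 1, BBA 1 or AAB 2 (0.53 to 0.66) and Ahnak without AAB 1, BBA 1 or BBA 2 (1.05 to 1.34). Lgals1 was not called without AAB 1, BBA 1 or BBA 2 (1.15 to 1.44), Vim without WT 1, WT 2, AAB 1 or BBA 2 (0.64 to 0.72) and Il18r1 with any 1 library left out (0.62 to 0.84). Ifi27l2a was not called without BBA 1 or BBA 2 (1.19 to 1.22) and Myb without WT 1, WT 2, AAB 1 or BBA 2 (−1.48 to −1.25).

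Some of the largest fold changes in BBA were at genes that were low in WT. Gm8909, an MHC class I-like gene of chromosome 17, stood at 2.43 and 2.72 CPM in WT, 1.61 and 2.64 in AAB and 37.0 and 57.3 in BBA, with a log2 fold change of 4.19 ± 0.29 (SE, edgeR adjusted p = 0.00122). Rab6b, a Rab GTPase gene, stood at 0.572 and 2.34 CPM in WT, 1.61 and 2.26 in AAB and 35.8 and 32.4 in BBA (log2 fold change 4.47 ± 0.43 SE, edgeR adjusted p = 0.00333). H2-Q2, an MHC class I gene, stood at 3.64 and 5.88 CPM in WT, 5.28 and 4.14 in AAB and 35.7 and 33.1 in BBA (log2 fold change 2.83 ± 0.23 SE, edgeR adjusted p = 0.0022). In all 3 the BBA libraries were high and the WT and AAB libraries low. Members of the MHC family are similar in sequence, and reads that fit several of them can be left out or given to another member. Of 97 tested genes between the first and the last H2 gene of chromosome 17, 7 were called in BBA (7.22%), 6 higher and 1 lower, and 1 in AAB (1.03%). Over all 9376 tested genes with a position 2.68% were called in BBA and 0.160% in AAB. Of the 6 higher, all except H2-T3 are listed below among genes that differed at least 10-fold between replicates of 1 genotype elsewhere.

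Gm8909 and Rab6b were also high in both BBA libraries and low in WT and AAB in memory and effector cells without cytokine and in naive cells with IL-15. In other libraries they did not follow the Stat5 genotype. In naive CD8+ T cells with IL-7, Gm8909 stood at 49.5 and 52.2 CPM in WT, 1.46 and 85.6 in AAB and 47.9 and 0.632 in BBA, and in naive CD4+ T cells without cytokine at 0.725, 0.439 and 55.6 in WT, 124 and 69.8 in AAB and 119 and 66.3 in BBA (here and below, levels in other conditions are counts scaled to the plain library total). Rab6b stood at 64.0 and 0.753 CPM in WT and 105 and 0.869 in BBA with IL-7. A rule chosen after seeing these values counted genes that differed at least 10-fold (on CPM + 1) between replicates of 1 genotype in another condition. It met 92 of 9750 tested genes (0.944%), 13 of the 268 BBA calls (4.85%), 1 of the 16 AAB calls (6.25%) and 8 of the 51 calls between AAB and BBA (15.7%). Among the 124 genes higher in BBA they were 2410017I17Rik, Arhgap31, Camk2b, Gm10653, Gm11127, Gm1966, Gm8909, H2-Ea-ps, H2-Q2, Rab6b, Rsad2 and Trim12a, and Gm5779 was the gene among the 144 lower. With 2 mice of each genotype, a difference between Stat5 genotypes and one between individual mice or litters cannot be told apart for such genes.

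Large falls in BBA were seen at Cdh1, Ppic and Rhob. Cdh1, which encodes E-cadherin, stood at 20.1 and 15.5 CPM in WT, 8.57 and 4.77 in AAB and 3.96 and 1.66 in BBA (log2 fold change −2.74 ± 0.43 SE, edgeR adjusted p = 0.0193). Ppic, a cyclophilin gene, stood at 61.6 and 58.2 CPM in WT, 21.3 and 28.6 in AAB and 14.2 and 8.32 in BBA (log2 fold change −2.46 ± 0.24 SE, edgeR adjusted p = 0.00333). Rhob, which encodes a small GTPase, stood at 67.9 and 159 CPM in WT, 56.7 and 113 in AAB and 14.96 and 19.6 in BBA (log2 fold change −2.70 ± 0.47 SE, edgeR adjusted p = 0.0279), with replicate 2 the higher in each genotype. For all 3 genes BBA lay below WT and AAB without overlap, which for WT was part of the rule by which they were named. Other genes with large falls were Gm6548 (−3.50), Mnda (−3.40), Echdc2 (−2.68), Neb (−2.21), Slc26a11 (−2.19), Repin1 (−1.91) and Sytl1 (−1.69), on the log2 scale. Pcsk1, a prohormone convertase gene, stood at 0.0715 and 0.218 CPM in WT, 0.451 and 0.565 in AAB and 9.11 and 16.6 in BBA, and Creb3l2, a transcription factor gene, at 1.21 and 1.25 CPM in WT, 0.773 and 1.13 in AAB and 8.72 and 7.21 in BBA, both high in BBA alone among the 3 genotypes. Ppic, Gm6548, Sytl1 and Repin1 stayed called with any 1 library left out. Cdh1 was not called without WT 1, WT 2 or BBA 2 (−2.90 to −2.16), Rhob without WT 2, BBA 1 or BBA 2 (−2.93 to −1.95) and Neb without WT 1 (−2.19). Slc26a11 was not called without WT 1, BBA 1 or BBA 2 (−2.31 to −2.11), Echdc2 without WT 1 (−2.49) and Mnda without WT 1, WT 2, AAB 1 or AAB 2 (−3.41 to −3.38).

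**Figure D5:**
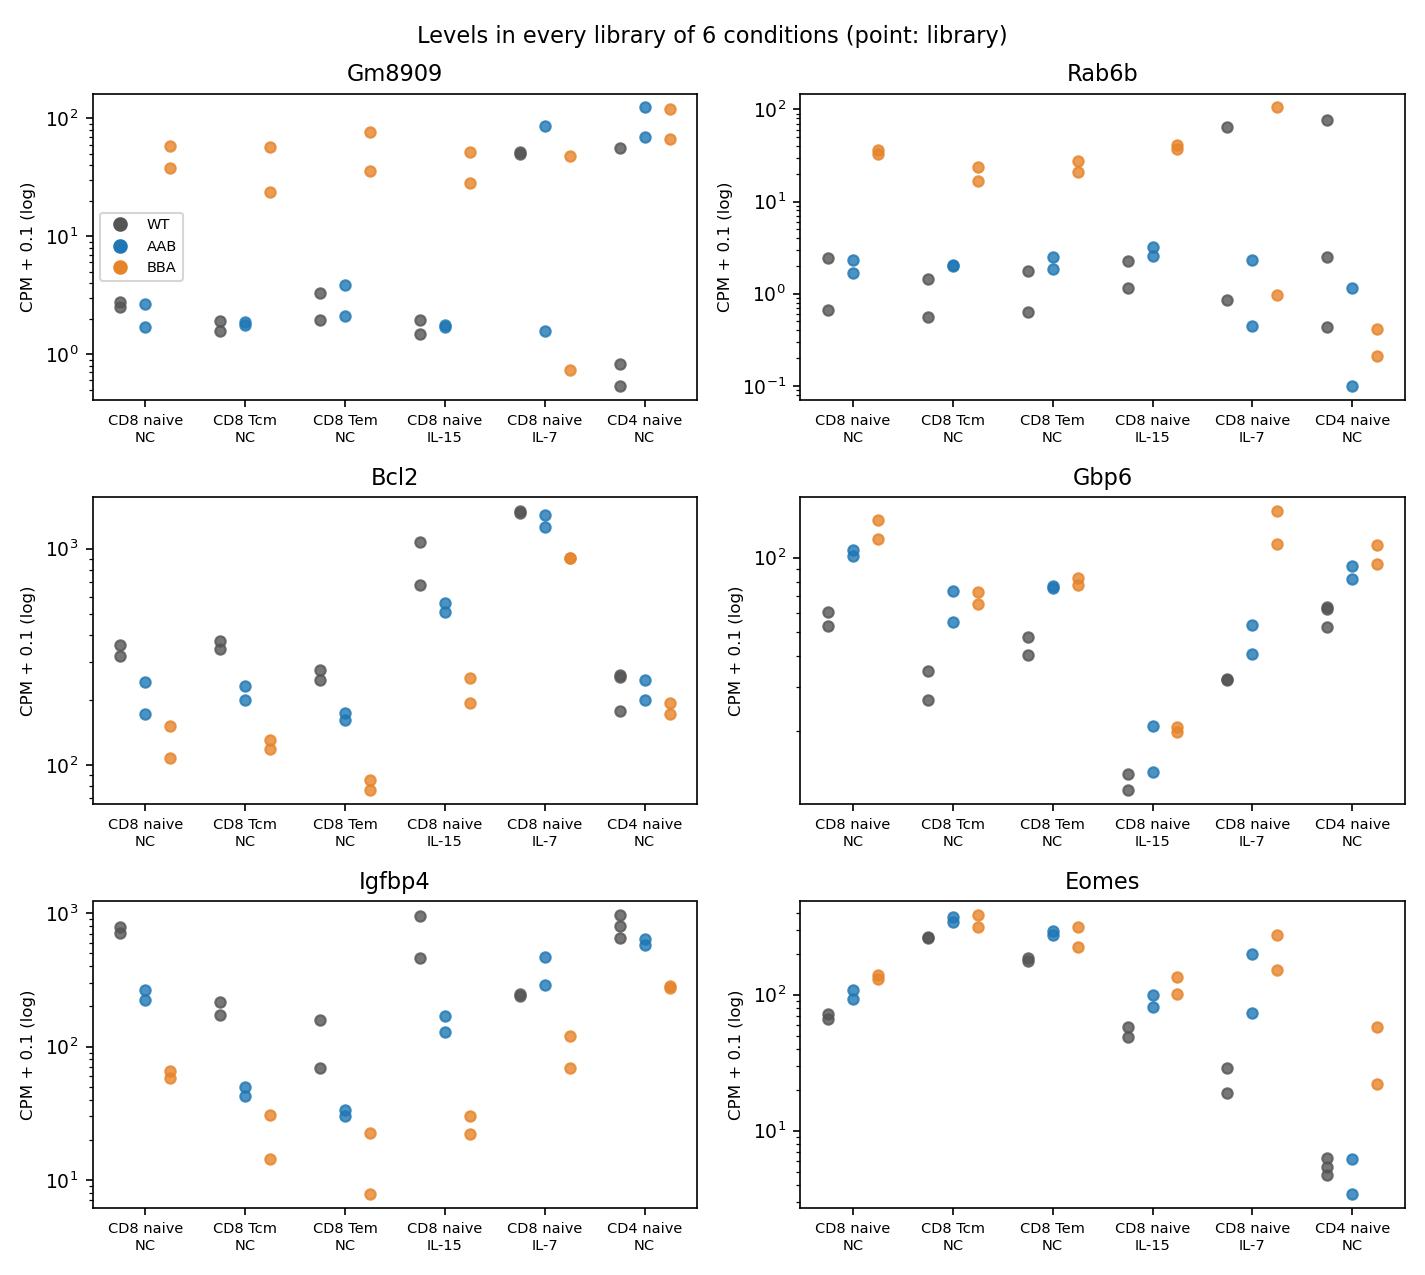
Levels of 6 genes (y axis, CPM + 0.1 on a log scale) in each library of 6 conditions (x axis), coloured by genotype. Gm8909 and Rab6b are high in both BBA libraries of 4 conditions but high and low within a genotype in the other 2, whereas Bcl2 and Igfbp4 are lower in BBA than in WT in each CD8 condition and Gbp6 and Eomes are higher.

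Other conditions of the series differ in how far they can serve as a second look. The correlation, over 9750 genes, of how far libraries with the same number lay from their group's mean was 0.555 to 0.582 between these cells and memory cells without cytokine, 0.572 to 0.609 for effector cells and 0.399 to 0.545 for naive cells with IL-15, and whether those libraries came from the same mice is not given by the labels. For naive cells with IL-7 it was −0.126 to 0.151. These are descriptions over genes of the same libraries. Y-linked genes summed to 375 to 502 CPM in the IL-7 libraries and in the naive CD4+ libraries without cytokine, with Xist at 0.135 to 5.69 CPM, the pattern of male mice, so neither set came from the mice measured here.

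In those male mice a minority of the BBA calls recurred. With IL-7, where 273 of 10157 genes were called between BBA and WT (2.69%), 13 of the 124 genes higher in BBA were again called higher (10.5% of them, and 11.1% of the 117 called with IL-7, 1.15% of those tested). Of the 144 lower, 22 were again lower (15.3%, and 14.1% of 156, 1.54% of those tested), among them Bcl2, Cish, Fosl2, Tnfrsf18, Vim and Tbc1d16. In naive CD4+ T cells, where 115 of 10154 genes were called (1.13%), 14 of the 124 were again higher (11.3%, and 17.9% of 78, against 0.768% of tested genes) and 7 of the 144 again lower (4.86%, and 18.9% of 37, against 0.364%), among them Igfbp4 and Dapl1. Called higher in all 3 sets were Cacnb3, Eomes, Gbp5, Gbp6, Irgm1, Irgm2 and Itm2a, and lower were Atn1 and Stat5b. The sign of the fold change was the same for 67.5% of the higher and 67.6% of the lower calls with IL-7 and for 57.8% and 76.7% in CD4+ cells. Across all genes the fold changes correlated with r = 0.225 (9574 genes, IL-7) and 0.0886 (9549 genes, CD4+), a description over genes that share libraries within each set.

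For interferon-induced GTPases, of 16 tested, 13 rose in BBA with IL-7 (median log2 fold change 1.51) and 13 in naive CD4+ cells (1.12). Of all tested genes 1.15% and 0.768% were called higher in these 2 sets. In memory and effector CD8+ T cells without cytokine the medians were 0.22 and 0.20, with 0 called in either. With IL-15 1 rose and 1 fell of 15 (median −0.50), beside 7.07% of all tested genes higher and 2.53% lower. Medians over all tested genes lay between −0.0104 and 0.00762 in these conditions. Whether these counts differ between conditions was not tested. Gbp6, for example, stood at 31.9 and 32.4 CPM in WT and 153 and 113 in BBA with IL-7, and Eomes at 18.8 and 29.0 in WT and 273 and 151 in BBA. Bcl2 and Stat5b were the 2 genes called lower in BBA in all 5 CD8+ conditions compared, which were naive cells under 3 conditions (no cytokine, IL-7, IL-15) and memory and effector cells without cytokine. Bcl2 stood at 1466 and 1487 CPM in WT, 1266 and 1427 in AAB and 905 and 910.1 in BBA with IL-7.

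Naive and memory cells without cytokine were also compared by a direct test of the difference of their fold changes. Of 10236 genes, 0 were called as differing between naive and memory cells in the effect of BBA (0% of those tested), with 214 genes at p under 0.05 before adjustment in edgeR, and DESeq2 called 10. Libraries of the same number deviated together in these conditions, as given above. In a fit chosen after this was seen, with same-numbered libraries of a genotype paired between naive and memory cells, edgeR called 0, with 574 at p under 0.05 before adjustment, and with the number as a replicate block within each condition it called 10. A p that misses the threshold does not show that the effects are alike. Of the 13 genes called higher in memory BBA cells 12 (92.3%) were among the 124 of naive cells (9.68% of them), and of the 16 called lower 10 (62.5%) were among the 144 (6.94%), beside 29 called in all (0.283%, 0.127% higher and 0.156% lower). In effector cells 7 of the 9 higher (77.8%) and 11 of the 12 lower (91.7%) were among them, which is 5.65% of the 124 and 7.64% of the 144, beside 21 called in all (0.208%, 0.0893% higher and 0.119% lower).

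With IL-15, 962 genes were called between BBA and WT (9.6%), 708 higher (7.07%) and 254 lower (2.53%). They held 56 of the 124 genes higher without cytokine (45.2%, and 7.91% of 708) and 39 of the 144 lower (27.1%, and 15.4% of 254). The difference between the BBA effect without cytokine and with IL-15 was called for 251 of 10386 genes (2.42%), 86 above 0 (0.828%) and 165 below (1.59%). With same-numbered libraries of a genotype paired between the conditions 526 were called, 181 above 0 and 345 below, and with the number as a replicate block within each condition 650, 209 above 0 and 441 below. That count was 53 without WT replicate 1 and 56 without WT replicate 2 of the cells without cytokine, and 64 and 106 without their BBA replicates 1 and 2. Of the IL-15 libraries, it was 149 without either AAB library, 163 without BBA replicate 1 and 590 without BBA replicate 2.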

How the data were processed

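The deposited values were raw counts of reads per gene symbol, which the authors made by aligning reads with TopHat2 and counting with HTSeq. The methods name the mouse build mm10 and the submitters' processing notes mm9. The annotation and the strand setting used for counting are not given in the sources used here. Counts cover reads on genes, and intervals between libraries rest on 2 per genotype.

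The 6 libraries were grouped by their labels. Of 24309 symbols, 22034 had a count, and 9750 passed a minimum of 80.5 normalized counts in at least 1 library, set by the Jaccard index between replicates (HTSFilter's rule, rewritten here: 100 thresholds from 1 to 200, loess span 0.3). TMM normalization and the quasi-likelihood test of edgeR 4.0.16 in R 4.3.3 were used, with 3 residual and 4.34 prior degrees of freedom. A call needed a fold above 1.5 and a Benjamini-Hochberg adjusted p under 0.05. CPM divides counts by the TMM-adjusted total of the tested genes, and in other conditions and for sex-linked genes by the plain library total. Effects in other conditions came from a fit of each, and differences between conditions from a fit of both. The code was tested on simulated data. Positions are from GENCODE vM21 (GRCm38), which placed 9376 tested symbols.

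Named genes were Stat5a and Stat5b, up to 12 per direction and comparison with the largest fold among calls with no overlap of libraries and a mean of at least 50 normalized counts, every called member of 31 gene lists, and a fixed set of genes. The members and lists were chosen with earlier results of these data known, so no list count is independent support. Alternatives were other filters, DESeq2 1.42.0, other thresholds, a replicate block, a fit of all CD8 libraries and leaving out each library. The table of transduced cells was not used, and some single genes are not reported here.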

Additional observations from a re-analysis of the deposited data

Results flagged for a closer look

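The BBA effect in naive cells differed between cells without cytokine and cells with IL-15 at 251 genes, by a direct test of the difference. Among the named genes, the log2 fold change of BBA over WT without cytokine exceeded that with IL-15 for Myc at 2.30 (edgeR adjusted p = 0.00897), Igtp at 1.60 (edgeR adjusted p = 0.0161), Irgm2 at 1.41 (edgeR adjusted p = 0.0161) and Socs1 at 1.34 (edgeR adjusted p = 0.00995). It lay below that with IL-15, as a signed value, for Cdh1 at −3.69 (edgeR adjusted p = 0.0215), Lgals1 at −1.94 (edgeR adjusted p = 0.0302) and Ahnak at −1.72 (edgeR adjusted p = 0.0186). The same held for Car2 at −1.72 (edgeR adjusted p = 0.0179), Itgae at −1.64 (edgeR adjusted p = 0.0119) and Crip1 at −1.29 (edgeR adjusted p = 0.0397). Without cytokine Cdh1, Lgals1, Ahnak, Itgae and Crip1 fell in BBA (log2 −2.74, −1.77, −2.18, −1.26 and −0.68) and Car2 rose (1.92). For Cdh1, Lgals1, Itgae and Crip1 the difference was larger in size than the fall itself. The count ran from 53 to 590 with 1 library left out, and the cause was not tested. With 2 libraries per genotype, no library could be tested as standing apart from the others of its group.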

How the results depend on the processing

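The count for BBA against WT (268) was 723 with no filter on low counts, 114 with all 48 CD8 libraries in one fit, 22 with Bonferroni adjustment, 135 at more than 2-fold, 428 with no fold limit and 71 to 251 with 1 library left out. For AAB against WT (16) it was 202, 5 and 6 under the first 3 of these, 84 with the DESeq2 Wald test and 7 to 15 with 1 library left out. For AAB against BBA (51) it was 314, 10 and 8, then 151 with the Wald test, 31 at more than 2-fold and 9 to 32. The difference between naive and memory cells (0) was 40 with no filter, 10 with the Wald test and 0 in every fit with 1 library fewer. The difference between no cytokine and IL-15 (251) was 717 with no filter, 74 in the fit of 48, 7 with Bonferroni, 625 with the Wald test and 53 to 590, and under filterByExpr 159 of 282 lay above 0, against 86 of 251. The cause was not tested. A library left alone in its genotype was assumed to vary like the others.

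With a replicate block the 5 counts were 474, 87, 164, 10 and 650. Libraries of the same number deviated together at 0.397 (WT and AAB), 0.0813 (WT and BBA) and 0.227 (AAB and BBA) over 9750 genes, so not every pair passed 0.1 and the numbers were not taken to pair the libraries within naive cells. Between naive cells without cytokine and memory or IL-15 libraries every such correlation passed 0.1, and a replicate block shared by both conditions within each genotype, chosen after seeing this, gave 0 and 526 for the last 2 counts. All 268, 16 and 51 calls kept their sign under every alternative, which adds no support because the alternatives reuse the same libraries. Of the named calls, 35 of 73, 6 of 16 and 6 of 32 kept their call in every fit with 1 library fewer. With 2 libraries per genotype and 9957938 to 18563638 counts each, genes of few counts could not be tested.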

Other observations

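In BBA 2.75% of all tested genes were called and in AAB 0.164%. Of 21 tested glycolysis genes, Ldhb rose and Tpi1 fell in BBA, and 0 were called in AAB by edgeR, with 3 at p under 0.05 before adjustment and 1 called higher by DESeq2. Ldhb, a subunit of lactate dehydrogenase, stood at 12.9 and 9.86 CPM in WT, 21.5 and 18.8 in AAB and 21.3 and 25.02 in BBA (1.03 in BBA on the log2 scale, edgeR adjusted p = 0.0236). Tpi1, which encodes triosephosphate isomerase, stood at 60.8 and 51.9 CPM in WT, 43.0 and 44.2 in AAB and 36.6 and 33.0 in BBA (−0.70, edgeR adjusted p = 0.016). Of 27 genes of cholesterol and fatty acid synthesis 0 were called against WT in either strain by edgeR or DESeq2, with 5 in BBA and 2 in AAB at p under 0.05 before adjustment and medians of −0.14 and −0.15. Of 10 amino acid transporter genes Slc6a19 rose in BBA, and of 11 purinergic and NAD-sensing genes Art2b rose (0.93, edgeR adjusted p = 0.035). Slc6a19 stayed called with any 1 library left out. Ldhb was not called without WT 1, WT 2 or BBA 2 (0.85 to 1.24), Tpi1 without WT 1 or BBA 2 (−0.62 to −0.58) and Art2b without WT 1, AAB 1, BBA 1 or BBA 2 (0.72 to 1.09).

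Of 18 tested proliferation genes 0 were called in BBA by edgeR, with 4 at p under 0.05 before adjustment and 1 called higher by DESeq2. In AAB 0 were called by either tool, with 0 at p under 0.05. Of 9 genes of G1 cyclins and CDK inhibitors 0 were called in either strain by edgeR or DESeq2, with 4 and 1 at p under 0.05. Mki67 stood at 6.86 and 7.03 CPM in WT, 3.67 and 13.8 in AAB and 12.2 and 7.99 in BBA, and the genotypes overlapped. Immediate early genes summed to 5585 and 10053 in WT, 5270.4 and 8492 in AAB and 5318 and 8602 in BBA, in CPM, with the library of replicate 2 above that of replicate 1 in each genotype.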
